A study of Mus musculus with 26 samples.

Results

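The genes described here are the inhibitors of cyclin-dependent kinases and the D cyclins of the mouse retina: the Cip/Kip inhibitors Cdkn1a (p21), Cdkn1b (p27) and Cdkn1c (p57), the Ink4 inhibitors Cdkn2c and Cdkn2d, and the D cyclins Ccnd1, Ccnd2 and Ccnd3. They were chosen by name, as the rows of the deposited expression table that carry one of these 8 names. Of the 8 genes, 6 were listed among 14580 genes in all. Cdkn2c and Cdkn2d were not analysed here. Ccnd2 was listed only for the adult Opn4-Cre/GFP libraries, and the other 5 genes were listed for every library. Cdkn1c had been named beforehand as a gene enriched in ipRGCs, and Ccnd1 as a marker of glia in adult cRGC pools. Their levels in those comparisons are therefore given as a description, with no test.

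D cyclins bind the kinases Cdk4 and Cdk6 and start the phosphorylation of the retinoblastoma protein, which lets a cell leave G1. Cip/Kip proteins bind cyclin and kinase together and block most of these complexes, whereas Ink4 proteins bind Cdk4 and Cdk6 alone. In the retina, Ccnd1 is the main D cyclin of dividing progenitors, Cdkn1b and Cdkn1c are known for the exit of progenitors from the cycle, and Cdkn1b and Ccnd3 are also known from Müller glia, the main glial cells of the retina. Retinal ganglion cells (RGCs) are neurons that no longer divide.

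The study measured RNA in mouse intrinsically photosensitive retinal ganglion cells (ipRGCs, GFP-positive) and in the GFP-negative conventional RGCs (cRGCs) by RNA-seq. Dissociated retinas were enriched for cells with Thy1 on their surface and then sorted for GFP. There were 6 groups: 3 ipRGC and 3 cRGC libraries from Opn4-GFP mice aged P4 to P6 (P5 in the following), 6 and 6 from Opn4-GFP mice aged P27 to P33 (adult), and 4 and 4 from Opn4-Cre+/-;Z/EG+/- mice of that adult age (Opn4-Cre/GFP). Each library was made from cells of several mice, and the 26 libraries came from 13 pools, each divided into an ipRGC and a cRGC library. Opn4-GFP is a bacterial artificial chromosome transgene that labels part of the M1 to M3 types of ipRGC. Opn4-Cre/GFP marks cells that have expressed Cre from the melanopsin gene, which takes in the M1 to M6 types, and its mice carry 1 Opn4 allele replaced by Cre. Some ipRGCs carry no GFP in either line and stay in the cRGC pools.

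Reads over the listed genes numbered 3927386 to 44871619 per library. Listed genes without any read numbered 16 to 2530 per library. In adult Opn4-GFP they were 2530 (cRGC) and 1893 (ipRGC) in pool 4, and 1716 (cRGC) and 1169 (ipRGC) in pool 2. In pool 4 of Opn4-Cre/GFP they were 1595 (ipRGC) and 1381 (cRGC). The part of such gaps in the levels of single members was not tested. The labels held for the sort, since the summed level of 5 ipRGC genes (Opn4 and Eomes among them) was 1444 to 9379 CPM in the ipRGC libraries and 6.38 to 329.8 CPM in the cRGC libraries. The adult cRGC libraries went partly against their label. Their summed level of the 15 or 16 listed pan-RGC markers was 1729 to 5921 CPM, against 12200 to 16310 CPM in adult ipRGC libraries and 17680 to 25580 CPM in all P5 libraries. Their summed Müller glia markers reached 10610 to 44910 CPM, against 696 to 1784 CPM in adult ipRGCs and 446.3 to 681.7 CPM at P5. No Müller glia library sum overlapped between adult ipRGCs and cRGCs. Summed vascular markers, of which only 3 (Opn4-GFP) or 4 (Opn4-Cre/GFP) of 8 were listed, stood at 554.2 to 3115 CPM in adult cRGCs. In adult ipRGCs they were at 0.726 to 52.1 CPM. The study itself described vascular markers as all but absent from its cRGC samples, on markers that may differ from those summed here. In such mixed samples, fewer cells of a type and less RNA per cell cannot be told apart.

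Levels are read counts relative to the scaled size of each library (CPM), and a difference is a log2 fold change of CPM + 1, which understates the change of low genes. A gene was called where its adjusted p from limma was below 0.05 and its log2 fold change was beyond 1 in either direction. Levels in the 6 groups are shown library by library in the plot of all listed members.

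**Figure D1:**
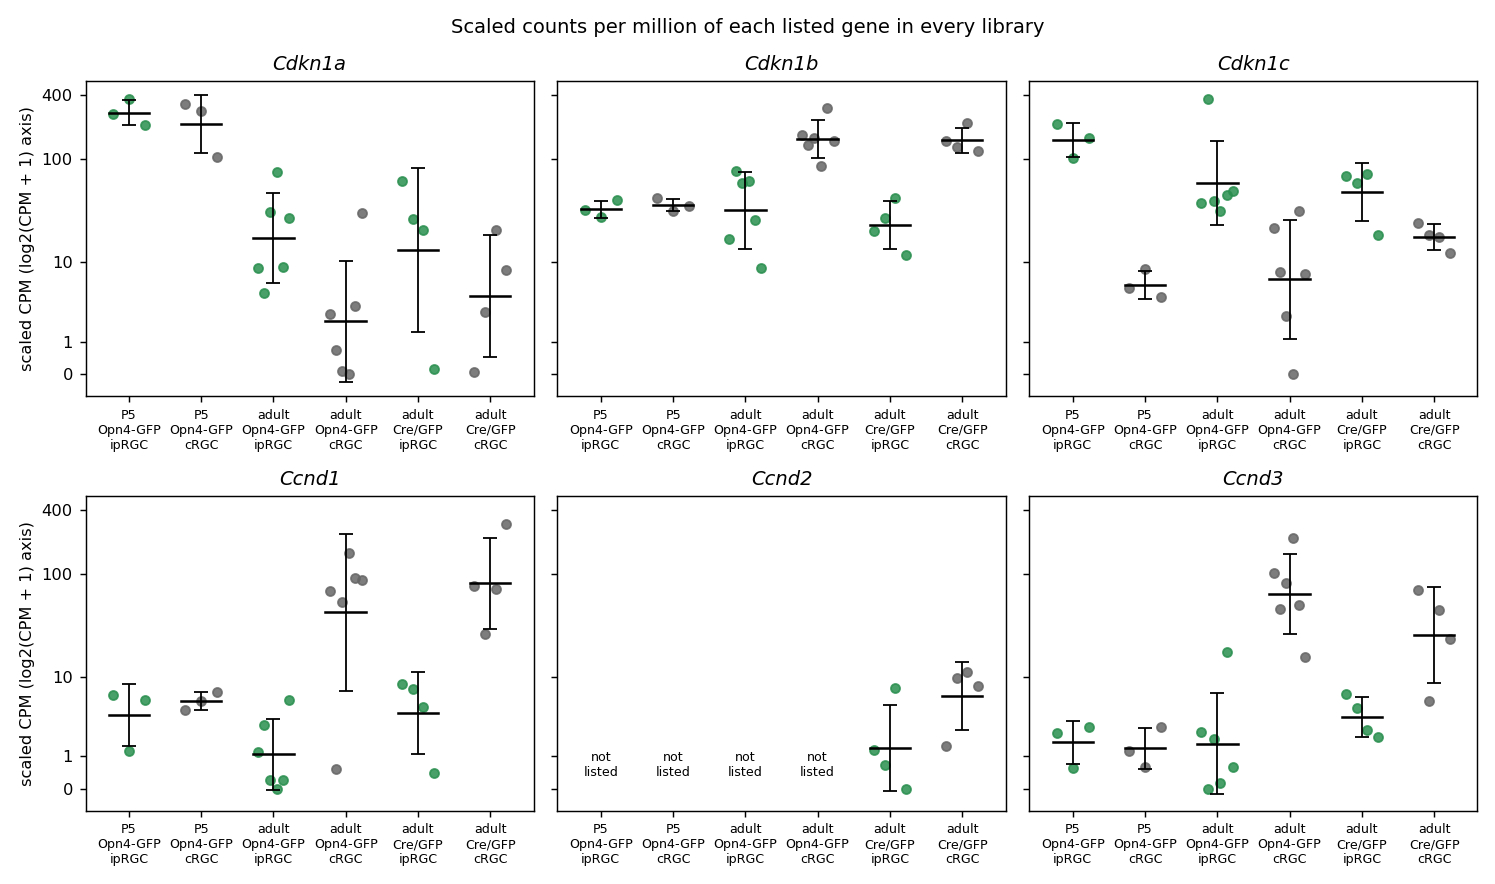
Level of each listed cell cycle inhibitor and D cyclin in each library, as log2(CPM + 1), by group. Points are libraries, and lines give the mean of the log2 values ± 1 SD. Cdkn1c is higher in ipRGCs, while Cdkn1b, Ccnd1 and Ccnd3 have their highest group means in adult cRGCs.

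Cdkn1c encodes p57 (chromosome 7, 150644255 to 150646955, minus strand, mm9) and is an imprinted gene expressed from the maternal allele. It had a higher mean in ipRGCs than in cRGCs in all 3 sets. The mean of Cdkn1a was also the higher one in ipRGCs, but its groups overlapped in all 3 sets and it was not called. At P5 the ipRGC libraries held 211.9, 103.3 and 158.0 CPM of Cdkn1c, and the cRGC libraries held 5.32, 8.46 and 4.27 CPM. Every ipRGC library lay far above every cRGC library. The means were 157.7 ± 54.3 CPM (SD, n = 3) and 6.02 ± 2.18 CPM (SD, n = 3), a ratio of 26.2 and a log2 fold change of 4.48. For this gene the contrast served to choose it, and 8.85% of all genes likewise had ipRGC libraries that lay above every cRGC library at P5.

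In adult Opn4-GFP mice the Cdkn1c level ran from 32.2 to 368.8 CPM in ipRGCs (median 42.6) and from 0 to 32.0 CPM in cRGCs (median 7.68). The groups did not overlap, but the lowest ipRGC library (32.2 CPM) lay beside the highest cRGC library (32.0 CPM). Of the 6 ipRGC libraries, 5 were at 32.2 to 50.1 CPM, and pool 2 alone stood at 368.8 CPM. The cRGC library of pool 4 held no read of Cdkn1c, which allows a level of up to 0.343 CPM (3 reads, counting error only). The means were 95.8 ± 134 CPM and 11.97 ± 12.4 CPM (SD, n = 6 each), a ratio of 8.0. Without the ipRGC library of pool 2 the ipRGC mean was 41.2 CPM and the ratio was 3.44, and without the cRGC library of pool 5 the ratio was 12.03. Of all genes, 1.4% had ipRGC libraries above every cRGC library in this set.

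The ipRGC libraries of adult Opn4-Cre/GFP mice held 69.4, 59.8, 71.7 and 18.6 CPM of Cdkn1c, and the cRGC libraries 24.8, 18.8, 17.9 and 12.3 CPM. The groups overlapped through the ipRGC library of pool 4, although the ipRGC library was the higher one in 4 of 4 pools. The means were 54.9 ± 24.7 CPM and 18.4 ± 5.11 CPM (SD, n = 4 each), a ratio of 2.98. The described log2 fold changes were thus 4.48 at P5, 2.97 in adults of the Opn4-GFP line and 1.39 in the Opn4-Cre/GFP line. These 3 differences of Cdkn1c were not compared by a test, because the gene was chosen on them.

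Cdkn1a encodes p21, the inhibitor that p53 induces after DNA damage, and lies on chromosome 17 (29227924 to 29237667, plus strand, mm9). Per kilobase, it had the highest level of the members at P5 in both cell types. Of the 8 genes, 5 had an entry in the RefSeq table of promoters, with 8 transcription starts among them. The 250 bases before the first start of Cdkn1a are shown because they hold the sequence through which the gene is best known, the p53 half-site, marked in capitals. They lie at chr17:29090729-29090978 on the plus strand of GRCm38.p6, a later build than that of the files. The search covered both strands, and the half-site reads as a match on either one.
Cdkn1a start 1, 250 bases upstream: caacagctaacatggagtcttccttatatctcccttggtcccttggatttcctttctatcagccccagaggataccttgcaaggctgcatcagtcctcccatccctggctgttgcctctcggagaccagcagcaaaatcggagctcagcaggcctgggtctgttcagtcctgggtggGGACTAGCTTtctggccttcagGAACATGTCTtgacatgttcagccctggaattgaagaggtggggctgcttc
The sites lie 73 to 64 and 51 to 42 bases before the start. The 250 bases before the second start of Cdkn1a hold no p53 half-site. Which start these cells used was not tested. A p53 half-site is found in 7.13% of the 32851 promoters of this length, and a match is a run of letters, not a shown binding site.

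At P5 Cdkn1a stood at 268.2, 364.1 and 210.5 CPM in ipRGCs and at 331.0, 280.9 and 105.5 CPM in cRGCs. Both groups spanned much the same range. The difference of Cdkn1a was 0.35 on the log2 scale (SE 0.342, adjusted p = 0.815), smaller than the spread between pools.

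Adult levels of Cdkn1a were scattered. In adult Opn4-GFP ipRGCs they ran from 4.71 to 75.0 CPM (median 18.2), and in cRGCs from 0 to 31.0 CPM (median 1.63). The cRGC library of pool 6 alone was above 3.29 CPM, and that of pool 4 held no read, which allows up to 0.343 CPM. The ipRGC library was the higher one in 5 of 6 pools, and the log2 difference of Cdkn1a was 2.57 (SE 1.02, adjusted p = 0.172). The ratio of means was 4.15. It was 19.7 without the cRGC library of pool 6 and 2.59 without the ipRGC library of pool 4. The ipRGC libraries of the Opn4-Cre/GFP line held 62.1, 26.6, 21.0 and 0.102 CPM of Cdkn1a and the cRGC libraries 0.0291, 2.79, 21.1 and 8.30 CPM. The groups overlapped there, with the ipRGC library higher in 2 of 4 pools, and the log2 difference was 1.43 (SE 1.22, adjusted p = 0.619).

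Cdkn1b encodes p27, which keeps cells that have left the cycle from entering it again, and lies on chromosome 6 (134870419 to 134875531, plus strand, mm9). It was lower in adult ipRGCs than in adult cRGCs in both lines while its levels in the cell types overlapped at P5. The 250 bases before its start (chr6:134920151-134920400, plus strand, GRCm38.p6, from RefSeq) are shown because Cdkn1b and Ccnd3 moved in the same direction. The CCAAT boxes, the sequence CCAAT that NF-Y recognises, are in capitals.
Cdkn1b, 250 bases upstream: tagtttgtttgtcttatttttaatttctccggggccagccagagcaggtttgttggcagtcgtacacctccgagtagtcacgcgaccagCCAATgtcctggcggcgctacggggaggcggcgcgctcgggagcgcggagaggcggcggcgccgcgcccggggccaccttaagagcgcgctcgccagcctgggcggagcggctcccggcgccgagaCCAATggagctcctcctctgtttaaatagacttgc
These boxes lie 161 to 157 and 35 to 31 bases before the start. CCAAT is found on either strand in 33.8% of all promoters of this length, and GGGCGG, the GC box that Sp1 recognises, which Cdkn1b holds 61 to 56 bases before its start, in 32.7%.

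At P5 the Cdkn1b level was 33.0, 27.8 and 40.8 CPM in ipRGCs and 42.7, 32.1 and 36.0 CPM in cRGCs. The groups overlapped, and the log2 difference of Cdkn1b was -0.13 (SE 0.271, adjusted p = 0.943). In adult Opn4-GFP mice it was 8.81 to 77.1 CPM in ipRGCs (median 42.7) and 86.1 to 301.3 CPM in cRGCs (median 152.7). Every cRGC library stood above every ipRGC library, and the means of 41.8 ± 27.97 and 166.1 ± 72.2 CPM (SD, n = 6 each) differed by a factor of 3.97. Cdkn1b fell by 2.21 on the log2 scale in ipRGCs against cRGCs (SE 0.612, adjusted p = 0.0326).

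In the Opn4-Cre/GFP line Cdkn1b stood at 20.8, 27.4, 42.9 and 11.8 CPM in ipRGCs and at 148.9, 131.1, 218.3 and 119.8 CPM in cRGCs. Again no library overlapped, and the means of 25.7 ± 13.1 and 154.5 ± 44.2 CPM (SD, n = 4 each) differed by a factor of 6.01. The log2 fold change of Cdkn1b was -2.64 (SE 0.508, adjusted p = 0.00543). Of all genes, 2.46% had cRGC libraries above every ipRGC library in the Opn4-GFP line and 6.36% in the Opn4-Cre/GFP line.

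The Cdkn1b call in adult Opn4-GFP lay close to the threshold. With the pool as a block its adjusted p from limma was 0.0594, with edgeR on recovered reads it was 0.114, and without the pools of a single sequencing run (5 and 6) the log2 fold change of Cdkn1b was -1.47 with an adjusted p of 0.487. Leaving out the ipRGC library of pool 1, 5 or 6, or the cRGC library of pool 1, 3, 5 or 6, also ended the call of Cdkn1b (adjusted p 0.0165 to 0.0989 over all 12 single omissions, log2 fold change -2.46 to -1.86).

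Ccnd1, the D cyclin of retinal progenitors (chromosome 7, 152115836 to 152125774, minus strand, mm9), was high in adult cRGC libraries, with 1 exception, and low in all others. At P5 it stood at 6.49, 1.24 and 5.66 CPM in ipRGCs and 4.43, 5.604 and 6.94 CPM in cRGCs. These groups overlapped, and the log2 difference of Ccnd1 at P5, which did not serve to choose it, was -0.45 (SE 0.5001, adjusted p = 0.846). In adult Opn4-GFP ipRGCs it ran from 0 to 5.67 CPM (median 0.715), where the library at 0, pool 4, allows up to 0.172 CPM.

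In the adult Opn4-GFP cRGC libraries of pools 1 to 6, Ccnd1 was at 68.9, 0.511, 54.6, 156.1, 90.8 and 86.9 CPM. Pool 2 lay within the range of the ipRGC libraries, and the other 5 lay far above it. That cRGC library also had the lowest summed Müller glia markers of its group, 11460 CPM against 16750 to 28470 CPM, and the highest summed amacrine markers, 7721 CPM. It had no read for 1716 of 11587 listed genes, against 144 to 554 in pools 1, 3, 5 and 6. Pool 4, with the highest Ccnd1, had none for 2530. The cRGC library of pool 2 held 135.6 CPM of Cdkn1b and 46.3 CPM of Ccnd3, neither of them the lowest of the group. The means of Ccnd1 were 76.3 ± 50.9 CPM in cRGCs and 1.71 ± 2.23 CPM in ipRGCs (SD, n = 6 each), a ratio of 44.7 (83.4 without the ipRGC library of pool 6), and the described log2 fold change was -4.40.

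The same gene in adult Opn4-Cre/GFP mice was at 76.1, 26.5, 72.7 and 291.2 CPM in cRGCs and at 8.47, 7.55, 4.78 and 0.409 CPM in ipRGCs. The groups did not overlap, as for 6.36% of all genes, and pool 4 had both the highest cRGC and the lowest ipRGC level. The ratio of the means of Ccnd1 was 22.0, and 11.02 without the cRGC library of pool 4, and the described log2 fold change was -4.02.

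Ccnd3, a D cyclin that is also found in differentiated cells (chromosome 17, 47642000 to 47736632, plus strand, mm9), was likewise high in adult cRGCs, and its contrasts could be tested. The 250 bases before its second start (chr17:47593217-47593466, plus strand, GRCm38.p6, from RefSeq) are shown for comparison with Cdkn1b. Capitals mark TGACGT, the core of the cAMP response element, and CCGCCC, the GC box read on the minus strand.
Ccnd3 start 2, 250 bases upstream: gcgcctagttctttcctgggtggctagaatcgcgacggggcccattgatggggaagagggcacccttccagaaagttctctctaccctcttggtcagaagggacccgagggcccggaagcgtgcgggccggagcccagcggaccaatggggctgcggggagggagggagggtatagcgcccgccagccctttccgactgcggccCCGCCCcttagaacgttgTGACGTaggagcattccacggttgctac
They lie 28 to 23 and 46 to 41 bases before this start, and a CCAAT box lies 108 to 104 bases before it. The 250 bases before the first start of Ccnd3 hold GC boxes but neither TGACGT nor a CCAAT box. TGACGT is found on either strand in 6.47% of promoters of this length. Cdkn1b and this start of Ccnd3 both hold a GC box and a CCAAT box, each of which about 33% of all promoters hold.

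At P5 Ccnd3 was low and rested on 5 to 32 reads per library, with 2.33, 0.57 and 2.72 CPM in ipRGCs and 1.24, 0.572 and 2.78 CPM in cRGCs. The groups overlapped, and the log2 difference of Ccnd3 was 0.18 (SE 0.508, adjusted p = 0.959). In adult Opn4-GFP mice Ccnd3 ran from 0 to 17.8 CPM in ipRGCs (median 1.24) and from 15.8 to 216.2 CPM in cRGCs (median 66.5). In ipRGCs only pool 5 was above 2.37 CPM, and it lay just above the lowest cRGC library, while within each of the 6 pools the cRGC library was the higher one. Ccnd3 fell by 4.64 on the log2 scale in ipRGCs against cRGCs (SE 0.960, adjusted p = 0.00308). The ratio of the means of Ccnd3 was 22.6, and 86.4 without the ipRGC library of pool 5. With edgeR on recovered reads the adjusted p of Ccnd3 was 0.0900, and with each library left out in turn it stayed below 0.05.

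With the Opn4-Cre/GFP line, Ccnd3 was at 6.66, 4.65, 2.55 and 2.05 CPM in ipRGCs and 70.2, 5.62, 45.7 and 23.7 CPM in cRGCs. The groups overlapped through the cRGC library of pool 2, which also had the lowest summed Müller glia markers of its group (10610 CPM) and the lowest Ccnd1. The means differed by a factor of 9.13, the log2 difference of Ccnd3 was -2.55 (SE 0.861) and its adjusted p was 0.116. Without that cRGC library the adjusted p was 0.0279, and with DESeq2 on recovered reads it was 0.00104. In adult Opn4-GFP cRGCs, Ccnd3 was lowest in pool 6 (15.8 CPM), while pool 2, lowest in Müller glia markers, held 46.3 CPM.

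Ccnd2, a D cyclin of many progenitor cells (chromosome 6, 127075797 to 127101066, minus strand, mm9), could be described only in adult Opn4-Cre/GFP mice. It was at 1.27, 0.667, 7.75 and 0 CPM in ipRGCs, where 0 allows up to 0.307 CPM, and at 1.49, 9.73, 11.2 and 7.998 CPM in cRGCs. The groups overlapped, although the cRGC library was the higher one in 4 of 4 pools. The log2 difference of Ccnd2 was -1.61 (SE 0.849, adjusted p = 0.358).

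**Figure D2:**
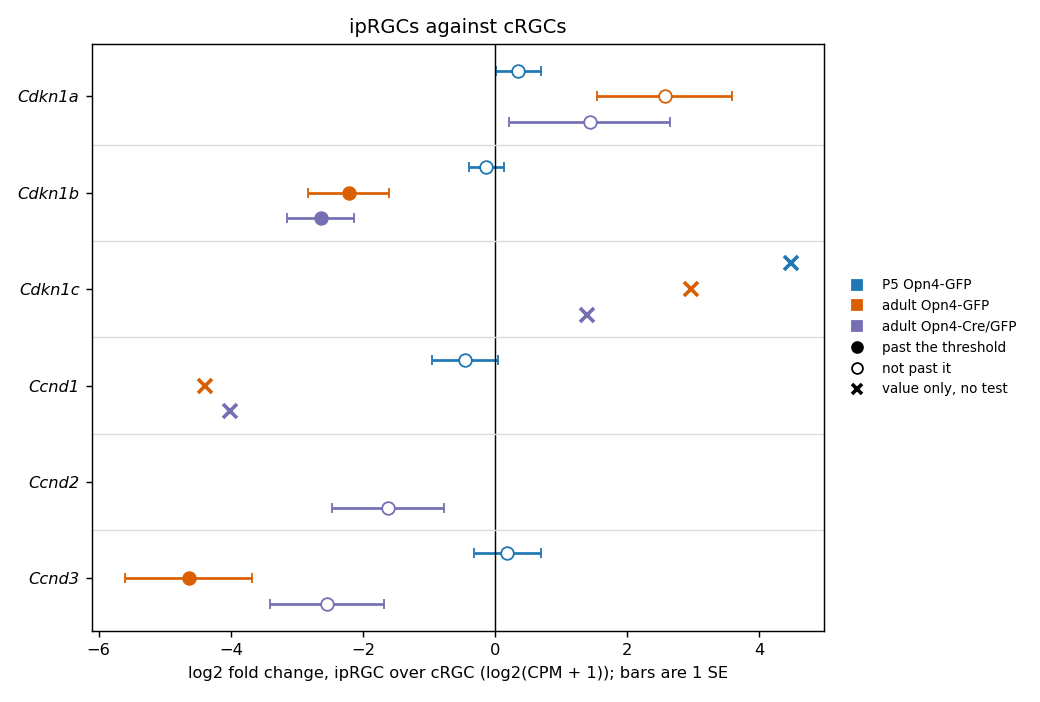
Log2 fold change of ipRGCs over cRGCs for each listed member in the 3 sets, with bars of 1 SE. Filled points passed the limma test, hollow points did not, and crosses are values of genes that were chosen on that contrast. Cdkn1b lies at -2.21 and -2.64 in the adult sets and at -0.13 at P5.

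Of the tested members, the limma test called 0 of 4 at P5, where it called 1.93% of 13677 genes higher and 2.27% lower in ipRGCs. None of the 4 had an unadjusted p below 0.05, and edgeR and DESeq2 on recovered reads called 0 as well. For adult Opn4-GFP mice it called 2 of 3 lower (Cdkn1b and Ccnd3), with 3.39% of 11587 genes lower and 1.76% higher. For the Opn4-Cre/GFP line it called 1 of 4 lower (Cdkn1b), with 3.47% of 13357 genes lower and 1.97% higher. In each adult set the members that were lower in ipRGCs went the same way as the Müller glia markers, which were called lower in ipRGCs for 16 of 16 and 18 of 18 listed genes. Mean summed amacrine markers were also higher in adult cRGCs, at 5097 against 2540 CPM (Opn4-GFP) and 4041 against 1978 CPM (Opn4-Cre/GFP). So were those of rods, at 562.9 against 69.0 and 573.0 against 124.3 CPM. Bipolar cell sums went the other way in both lines, and cone sums in Opn4-Cre/GFP. The part of glia or of any other cell type in the lower levels of Cdkn1b and Ccnd3 was not tested. Ccnd1 belongs to the usual progenitor markers too, and the summed level of the other listed progenitor markers was 439.3 to 2334 CPM in adult cRGCs and 11.7 to 91.7 CPM in adult ipRGCs.

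**Figure D3:**
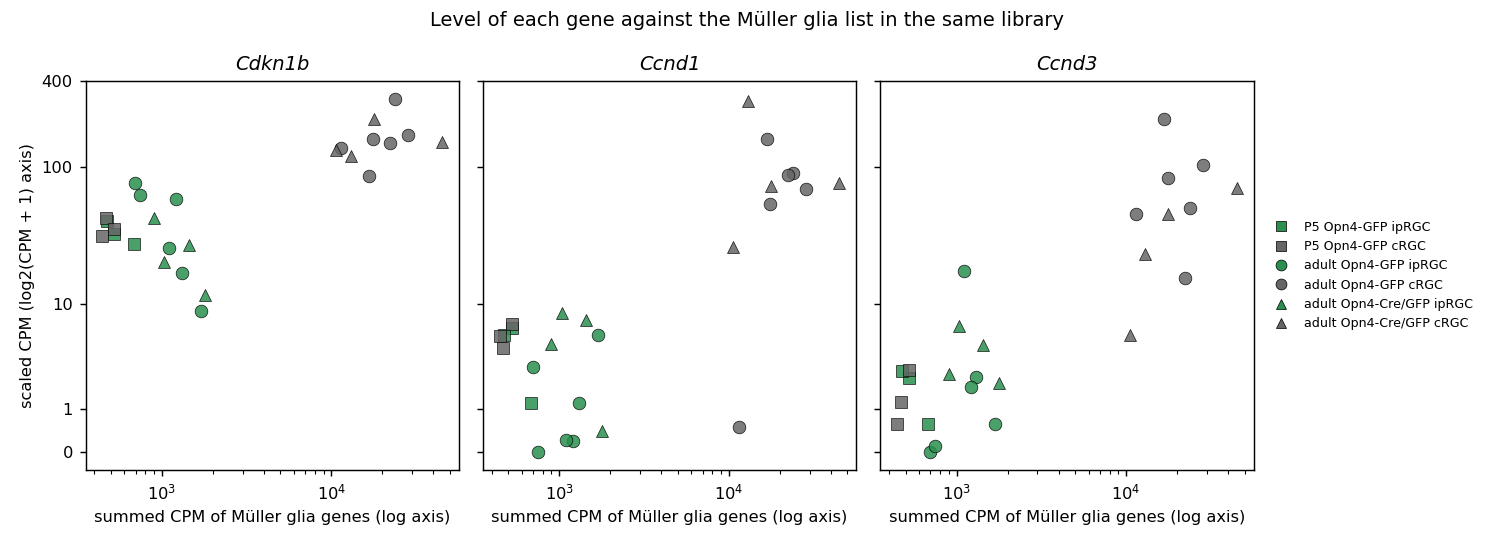
Level of Cdkn1b, Ccnd1 and Ccnd3 in each of the 26 libraries as log2(CPM + 1), against the summed CPM of the Müller glia markers on a log axis. The adult cRGC libraries lie apart at 10610 to 44910 CPM of glial markers, and every other library lies at 446.3 to 1784 CPM.

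Adult and P5 libraries were compared within each cell type of the Opn4-GFP line, on CPM that were scaled jointly over the 26 libraries for the 11150 genes listed in all sets. Each age forms its own set of columns, so age and whatever else differed between these sets cannot be told apart. The joint scaling put the median of all genes at -0.29 (log2) in ipRGCs and at -0.34 in cRGCs for adult against P5, and changes should be read relative to it. In cRGCs, 3 of 4 tested members were called, Cdkn1a lower and Cdkn1b and Ccnd3 higher, while the test called 3.87% of all genes higher and 3.83% lower.

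On that joint scale Cdkn1a in cRGCs was 104.1 to 325.4 CPM at P5 and 0 to 33.9 CPM in adults, so that no library overlapped. Cdkn1a fell by 6.04 on the log2 scale (SE 1.14, adjusted p = 4.7e-04), and it stayed called under every alternative and without each single library (adjusted p 5.7e-05 to 0.0290). The pan-RGC markers were also called lower in adult than in P5 cRGCs, for 13 of 15 genes (median log2 difference -4.01). In ipRGCs 0 of these 15 were called (median -0.87). The part of the RGC share of the cRGC libraries in the level of Cdkn1a was not tested. In ipRGCs Cdkn1a was 203.1 to 353.9 CPM at P5 and 4.64 to 72.4 CPM in adults, which did not overlap either. There its log2 difference was -3.82 (SE 1.14) and missed the threshold (adjusted p = 0.0972), and without 1 library the adjusted p of Cdkn1a was 0.0616 to 0.438. Over the other settings it reached 0.379, and it was below 0.05 in a fit of the 2 ipRGC groups alone (0.0159) and with a pseudocount of 5 (0.00938). The difference of Cdkn1a between the cell types in this respect was not called (2.22 on the log2 scale, adjusted p = 1.0). Non-overlapping groups, lower in adults, were found for 7.25% of all genes in cRGCs and for 6.01% in ipRGCs.

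Cdkn1b rose with age in cRGCs, from 31.2 to 42.0 CPM over the P5 libraries to 86.3 to 336.3 CPM over the adult libraries, with no overlap (as for 6.13% of all genes). Its log2 fold change was 2.16 (SE 0.598, adjusted p = 0.0201). Leaving out the P5 cRGC library of pool 1, 2 or 3 each ended the call of Cdkn1b (adjusted p 0.0688, 0.112 and 0.0850). In ipRGCs Cdkn1b was 27.1 to 39.3 CPM at P5 and 9.33 to 75.9 CPM in adults, and its log2 difference was 0.05 (SE 0.598, adjusted p = 0.989). The SD of Cdkn1b in ipRGCs was 27.7 CPM in adults and 6.14 CPM at P5.

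Ccnd3 rose with age in cRGCs, from 0.556 to 2.74 CPM at P5 to 17.3 to 216.7 CPM in adults, again with no overlap. Its log2 fold change was 4.88 (SE 0.933, adjusted p = 5.4e-04). In ipRGCs Ccnd3 did not pass the test (log2 difference 0.02, SE 0.933, adjusted p = 0.998). The log2 difference of Ccnd3 between ipRGCs and cRGCs differed between adults and P5 by -4.85 (SE 1.32), which did not pass the threshold (adjusted p = 0.0739). It was called without the adult ipRGC library of pool 5 (adjusted p = 0.0189), without the adult cRGC library of pool 6 (0.0402) and without the pools of a single run (0.0195). The corresponding value of Cdkn1b was -2.11 (SE 0.846, adjusted p = 0.503). In this test of the difference, 0.816% of all genes were called lower and 0.188% higher, and 0 of 3 tested members were called by limma, edgeR and DESeq2, with 2 of 3 at an unadjusted p below 0.05 in each.

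Cdkn1c, for which age was not used in the choice, did not pass the test of age in either cell type. In ipRGCs it was 100.4 to 210.7 CPM at P5 and 31.1 to 363.3 CPM in adults, and the log2 difference was -1.25 (SE 0.876, adjusted p = 0.709). In cRGCs the log2 difference of Cdkn1c was 0.27 (SE 0.876, adjusted p = 0.910). Ccnd1 in ipRGCs had a log2 difference of -1.15 (SE 1.09, adjusted p = 0.817). Ccnd1 in cRGCs was at 4.36 to 6.85 CPM at P5 and at 0.507 to 156.5 CPM in adults, a described log2 fold change of 2.86. In ipRGCs, 0 of 5 members were called with limma, edgeR or DESeq2 (0.96% of all genes higher and 0.448% lower with limma), and only Cdkn1a had an unadjusted p below 0.05. The Müller glia markers were called higher in adult than in P5 cRGCs for 11 of 11 genes listed in all sets, and the amacrine markers for 7 of 11. The part of either in the levels of Cdkn1b and Ccnd3 was not tested.

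**Figure D4:**
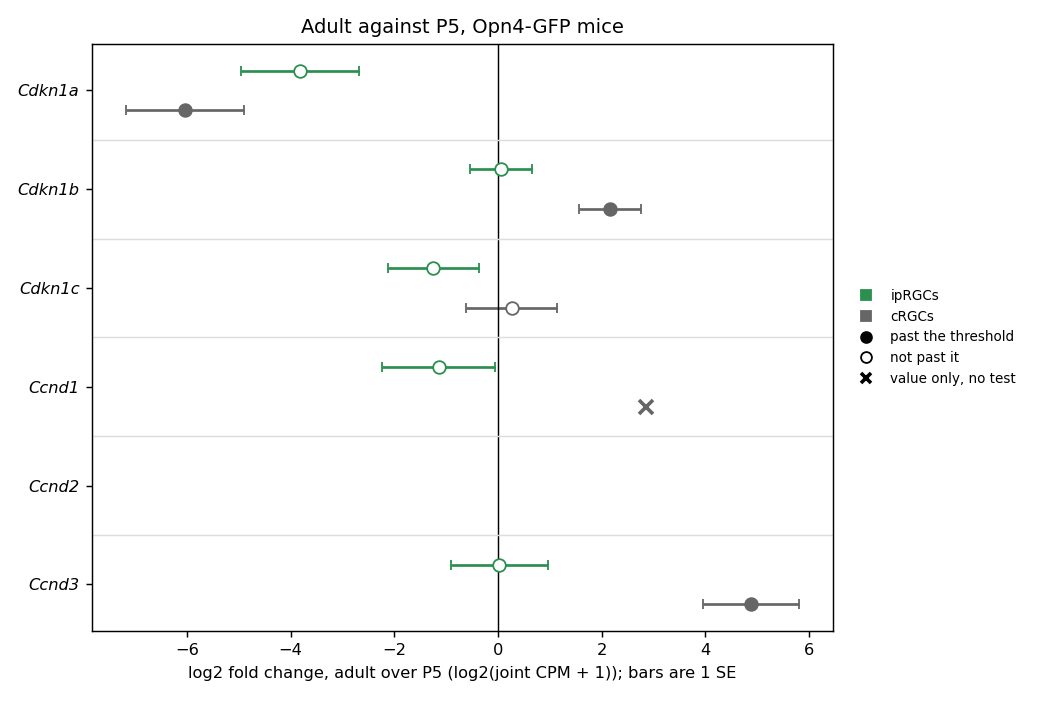
Log2 fold change of adult over P5 Opn4-GFP libraries for each member, in ipRGCs (green) and cRGCs (grey), with bars of 1 SE. Filled points passed the limma test, hollow points did not, and the cross is a value with no test. In cRGCs Cdkn1a lies at -6.04, Cdkn1b at 2.16 and Ccnd3 at 4.88. Ccnd2 has no value, since it was listed in 1 set.

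Between the 2 adult lines, 0 of 5 members were called in ipRGCs and 0 of 5 in cRGCs, by limma, edgeR or DESeq2, and none had an unadjusted p below 0.05. The test called 0.0179% of all genes in ipRGCs and 0.0269% in cRGCs. The joint scaling put the median of all genes at 0.21 in ipRGCs and 0.23 in cRGCs for Opn4-Cre/GFP against Opn4-GFP. The largest difference of a member was that of Ccnd3 in cRGCs, -1.35 on the log2 scale (adjusted p = 0.739), followed by that of Cdkn1c in cRGCs, 1.23 (adjusted p = 0.743). In ipRGCs the log2 difference of Cdkn1c between the lines was -0.37 (adjusted p = 0.999). The difference between ipRGCs and cRGCs was not called to differ between the lines for Cdkn1a (-1.17), Cdkn1b (-0.43) or Ccnd3 (2.10), where 0% of all genes were called.

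Levels of different members can be set beside each other only per kilobase of transcript. On that scale of CPM per kb, Cdkn1a led at P5 with 126.4 ± 34.9 in ipRGCs and 107.6 ± 53.3 in cRGCs (SD, n = 3 each). Second was Cdkn1c in ipRGCs (81.7 ± 28.1) and Cdkn1b in cRGCs (8.12 ± 1.18), and Ccnd1 and Ccnd3 came last in both. The order held in 3 of 3 pools at each step. At P5 the D cyclins were thus at most 1.48 CPM per kb on average.

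In adult ipRGCs Cdkn1c led in both lines, with 49.6 ± 69.3 CPM per kb in Opn4-GFP (n = 6) and 28.4 ± 12.8 CPM per kb in Opn4-Cre/GFP (n = 4), above Cdkn1a in 5 of 6 and 4 of 4 pools. Cdkn1a (11.7 ± 11.9 and 12.4 ± 11.6 CPM per kb) and Cdkn1b (9.19 ± 6.15 and 5.65 ± 2.88 CPM per kb) were neighbours whose order differed between pools. In adult Opn4-GFP cRGCs Ccnd3 (38.0 ± 31.4 CPM per kb) and Cdkn1b (36.5 ± 15.9 CPM per kb) led, each above the other in 3 of 6 pools. Among cRGCs of the Opn4-Cre/GFP line Cdkn1b led with 34.0 ± 9.70 CPM per kb. Ccnd1 (30.4 ± 30.9 CPM per kb) followed there, above Ccnd3 (16.1 ± 12.4 CPM per kb) in 2 of 4 pools. Cdkn1a was the last of the 5 in adult Opn4-GFP cRGCs, with 2.82 ± 5.48 CPM per kb.

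The kinases that D cyclins and Ink4 proteins bind, and other cell cycle genes, were counted in fixed lists. Of 7 tested kinases, kinase activators and other inhibitors, 0 were called at P5 by limma, edgeR or DESeq2, and none had an unadjusted p below 0.05 (median log2 difference 0.06, against 0.00 over all genes). In adult Opn4-GFP 1 was called lower in ipRGCs, Cdk6, the partner of D cyclins, with a mean of 0.0397 CPM in ipRGCs and 45.2 CPM in cRGCs (log2 fold change -4.95, adjusted p = 6.5e-04). Without the single-run pools the adjusted p of Cdk6 was 0.0589, and it stayed called without each single library. Cdk6 also rose with age in cRGCs (3.86, adjusted p = 0.00264), but not with edgeR (adjusted p = 0.101) or in a fit of the compared groups alone (0.0572). In the Opn4-Cre/GFP line, where Cdk6 averaged 0.761 CPM in ipRGCs and 12.2 CPM in cRGCs, 0 of 7 were called by any of these tools and 3 had an unadjusted p below 0.05 with limma. Cdk4, the other partner, had log2 differences of 0.14 (adjusted p = 0.966) and -0.13 (adjusted p = 0.943) in the adult sets. Cdk5r1, which activates Cdk5 in neurons outside the cell cycle, fell with age in cRGCs by 2.38 on the log2 scale (adjusted p = 0.0288). This call was lost without any 1 of the 3 P5 cRGC libraries or the adult cRGC library of pool 3 or 6 (adjusted p up to 0.137), and with edgeR (0.158) or DESeq2 (0.0977).

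Of the Rb and E2f factors, 0 of 11 were called at P5 and 0 of 9 in adult Opn4-GFP by limma, edgeR or DESeq2, with 0 and 1 at an unadjusted p below 0.05 with limma. The Opn4-Cre/GFP line had 1 of 9 called, Rb1, the retinoblastoma protein itself, at 46.0 CPM in ipRGCs and 246.8 CPM in cRGCs on average (log2 fold change -2.41, adjusted p = 0.0187). The call of Rb1 was lost without the cRGC library of pool 1 or 3 (adjusted p = 0.0576 and 0.0667) and without the single-run pool 4 (0.0703). In adult Opn4-GFP the log2 difference of Rb1 was -1.36 (adjusted p = 0.262), and it was called only without the cRGC library of pool 4 (adjusted p = 0.0298). The A, B and E cyclins, which act after the D cyclins in the cycle, were largely unlisted, with 3 of 6 tested at P5, 1 in adult Opn4-GFP mice and 3 in those with Opn4-Cre/GFP. None of them was called or had an unadjusted p below 0.05 with limma, edgeR or DESeq2.

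Of the 20 genes of S phase and mitosis, 14 were listed at P5, 5 in adults of the Opn4-GFP line and 6 in the Opn4-Cre/GFP line. Between ipRGCs and cRGCs 0 were called in the 3 sets by limma, edgeR or DESeq2, with 1, 2 and 0 at an unadjusted p below 0.05 with limma. Pcna, the sliding clamp of DNA replication, was at 6.28 CPM in ipRGCs and 9.86 CPM in cRGCs at P5, and at 9.09 and 9.07 CPM in adult Opn4-GFP. Mcm6, a subunit of the replicative helicase, fell with age in cRGCs by 2.90 on the log2 scale (adjusted p = 0.0153), with means of 10.98 CPM at P5 and 1.18 CPM in adults. Without any 1 of the 3 P5 cRGC libraries (adjusted p 0.0637 to 0.0761) or with edgeR (0.280), Mcm6 was not called. Of the genes for the turnover of Cip/Kip proteins and D cyclins, among them Skp1a, Cul1, Fbxw7 and Gsk3b, 0 of 14, 0 of 12 and 0 of 13 were called by limma, edgeR or DESeq2 in the 3 sets, with 0, 2 and 2 at an unadjusted p below 0.05 with limma. Skp1a, a core subunit of the ligase that marks p27 for degradation, had log2 differences of -0.03, 0.07 and 0.32.

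**Figure D5:**
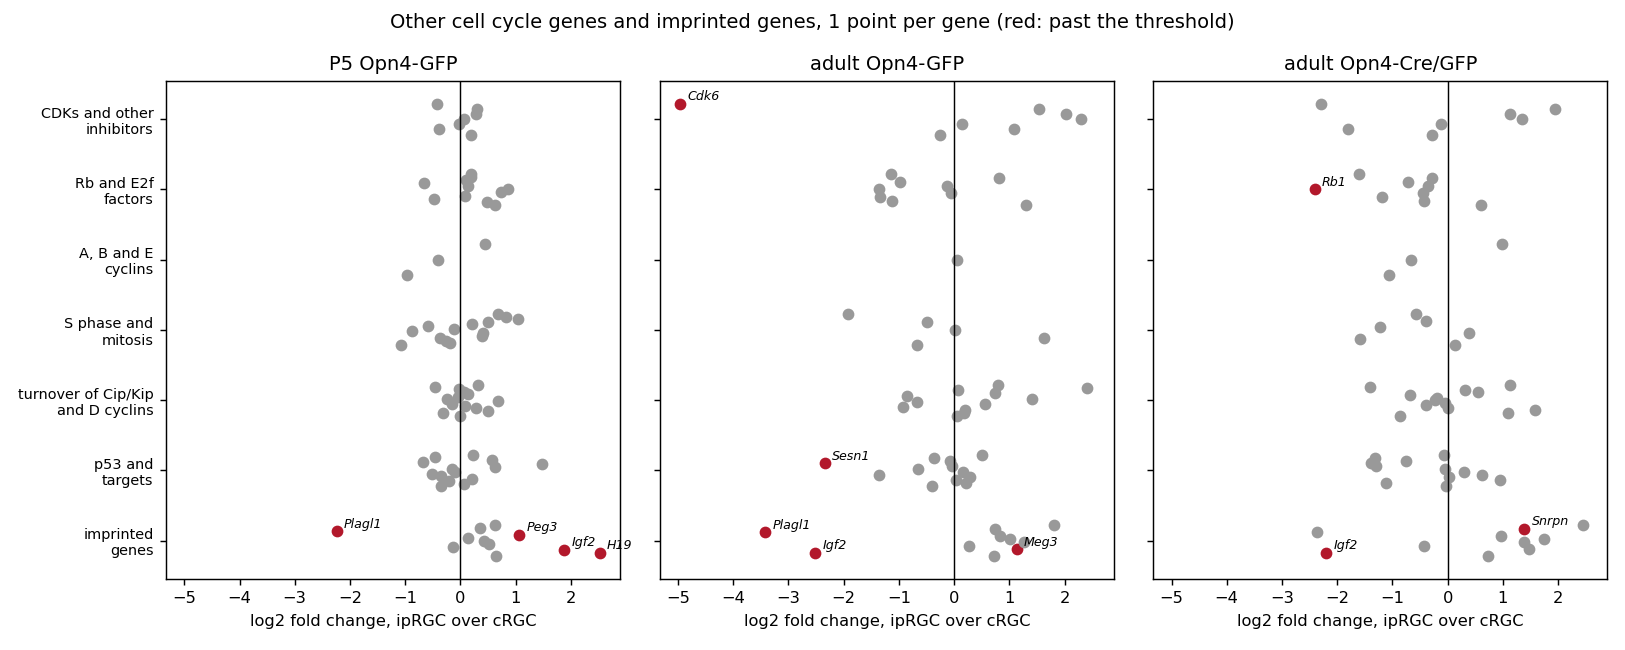
Log2 fold change of ipRGCs over cRGCs for every tested gene of the 7 lists of other genes, in the 3 sets. Red points passed the limma test and grey points did not. Beside the imprinted genes, red points are Cdk6 and Sesn1 in adult Opn4-GFP and Rb1 in adult Opn4-Cre/GFP.

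Among p53 and its targets other than Cdkn1a, 0 of 14 were called at P5 (1 at an unadjusted p below 0.05, and 0 called by edgeR and DESeq2). Sesn1, a target that restrains mTORC1, was the 1 gene of 12 called in adult Opn4-GFP, lower in ipRGCs at 21.8 CPM against 115.4 CPM (log2 fold change -2.34, adjusted p = 0.0395). The call of Sesn1 was lost with the pool as a block (adjusted p = 0.0716), with edgeR (0.0732) and without the ipRGC library of pool 2, 3, 5 or 6 or the cRGC library of pool 1, 2, 3 or 4 (up to 0.0847). It was also lost with plain CPM (0.0612) and without the single-run pools (0.152). With Opn4-Cre/GFP, 0 of 12 were called by limma, edgeR or DESeq2 (1 at an unadjusted p below 0.05 with limma). In the cRGCs, where Cdkn1a fell with age, 0 of these 12 genes fell by limma, edgeR or DESeq2, with 3 at an unadjusted p below 0.05 with limma. DESeq2 called 3 of them higher with age and edgeR 1. Their median log2 difference was -0.12, against -0.34 over all genes.

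Of the imprinted genes other than Cdkn1c, 4 of 11 were called at P5. H19, a long noncoding RNA expressed from the maternal allele, was higher in ipRGCs (82.0 against 14.7 CPM, log2 fold change 2.52, adjusted p = 2.3e-04), as were Igf2, the growth factor of the same domain (126.8 against 36.8 CPM, 1.88, adjusted p = 0.0150), and Peg3, a zinc finger gene (420.4 against 200.1 CPM, 1.06, adjusted p = 0.00612). Plagl1, a zinc finger gene that slows growth, was lower (4.75 against 26.1 CPM, -2.24, adjusted p = 0.00110). H19 and Plagl1 stayed called without each single library. Igf2 was lost without the ipRGC library of pool 2 or 3 or the cRGC library of pool 1 or 2 (adjusted p up to 0.0890), and its adjusted p was 0.0523 with edgeR and 0.142 with DESeq2. Peg3, whose log2 fold change lies near the threshold of 1, was lost without the ipRGC library of pool 1 or the cRGC library of pool 2, and with plain CPM.

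In adult Opn4-GFP, Igf2 was lower in ipRGCs (47.3 against 251.1 CPM, log2 fold change -2.51, adjusted p = 0.0104), which is the opposite direction to P5. Igf2 stayed called without each single library but not without the single-run pools (adjusted p = 0.238). Plagl1 was again lower (-3.42, adjusted p = 0.0357), and Meg3, a maternally expressed noncoding RNA, was higher (1.13, adjusted p = 0.0416). Plagl1 was called in this set only with all 12 libraries or without the ipRGC library of pool 1 or 5 or the cRGC library of pool 4, and Meg3 only with all or without the ipRGC library of pool 2 or the cRGC library of pool 2 or 4. The highest adjusted p over the single omissions was 0.0945 for Plagl1 and 0.0977 for Meg3, and neither was called with edgeR, with DESeq2 or without the single-run pools. Plagl1 was also lost with plain CPM (0.0682) and Meg3 with a pseudocount of 5 (0.0575). The Opn4-Cre/GFP line had Igf2 lower as well (96.4 against 574.9 CPM, -2.20, adjusted p = 0.0476) and Snrpn, a splicing factor gene of neurons, higher (1.39, adjusted p = 0.0447). Of the 8 single omissions, 7 ended the call of Igf2 in that line (all but that of the cRGC library of pool 4, adjusted p up to 0.152) and 7 that of Snrpn (all but that of the cRGC library of pool 2, up to 0.131). The adjusted p of Snrpn was 0.0508 with the pool as a block, 0.131 with edgeR, 0.0502 with DESeq2 and 0.102 without the single-run pool. That of Igf2 was 0.062 with edgeR, 0.0640 with plain CPM and 0.0551 with a pseudocount of 0.5. The change of the Igf2 difference between P5 and adult Opn4-GFP passed the test itself (-4.41 on the log2 scale, adjusted p = 0.0132). It was lost without the P5 ipRGC library of pool 3 or the P5 cRGC library of pool 1 or 2 (adjusted p of Igf2 up to 0.0796), and without the single-run pools (0.0562). Vascular marker sums were higher in cRGCs than in ipRGCs in adults, as was Igf2, at 554.2 to 3115 CPM against 0.726 to 52.1 CPM, and their part was not tested. At P5 these sums, over 3 listed genes, were 11.4 to 13.8 CPM in ipRGCs and 7.25 to 302.3 CPM (median 18.65) in cRGCs. For age, limma called 2 of 10 imprinted genes higher and 2 lower in cRGCs, where 3.87% of all genes were higher and 3.83% lower. In ipRGCs it called 1 higher and 1 lower (0.96% and 0.448% of all genes). Igf2 (log2 fold change 2.92, adjusted p = 0.00495) and Zim1 (-3.20, adjusted p = 0.0258) were called in cRGCs, and these calls were not followed under the alternatives. Nnat, an imprinted gene of developing neurons, fell by 4.78 on the log2 scale with age in ipRGCs, and in cRGCs its log2 fold change was -5.63. Peg3 rose with age in both, by 1.55 and 1.81. In ipRGCs the calls of Nnat and Peg3 were each lost without any 1 of the 3 P5 libraries (adjusted p up to 0.0990 and 0.232). That of Nnat was also lost with edgeR (0.176) and that of Peg3 in a fit of the compared groups alone (0.0627), while in cRGCs they held without each single library.

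For each member listed in all sets, the genes of the most similar level were found by Pearson's r of log2 levels over the 26 libraries, among 10490 genes with a mean of at least 5 CPM. These libraries share age, line and cell type within groups, so r is a description with no p. Nearest to Cdkn1a were Ptpn5 (r = 0.885), Wdr47, Tcerg1l, Zim1 and Scn3a. Rdh10 (0.911), Slmap, Nfia and Notch1 were among the nearest to Cdkn1b. Cdkn1c lay nearest to Prkcq (0.806), Brinp1, Lrrtm2, Cdhr1 and Pcsk2. Ccnd1 lay nearest to Tyw5 (0.905), Slc7a2, Neat1, Gpr37 and Dcdc2a, and Ccnd3 to Ddr1 (0.91), Cdon, Glb1l2, Rlbp1 and Ildr2. Rlbp1, which binds retinaldehyde, is 1 of the usual Müller glia markers.

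Among the members themselves, r over the 26 libraries was 0.709 for Ccnd1 and Ccnd3, 0.689 for Cdkn1b and Ccnd3, and 0.659 for Cdkn1b and Ccnd1. Cdkn1c and Cdkn1a had an r of 0.335 with each other. Each of these 2 had a negative r with Cdkn1b, Ccnd1 and Ccnd3 (-0.323 to -0.664).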

How the data were processed

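RNA was measured in 26 libraries of sorted ipRGC and cRGC pools. The authors amplified the RNA, clipped and quality-filtered single-end reads, and used TopHat2 for alignment to mm9, htseq-count for counting and edgeR for scaling. No tool version is given in the sources used here. The deposited signal values are CPM whose library sizes carry a TMM factor (trimmed mean of M values), made by the authors for each set of columns on its own after removal of genes under 1 CPM in most samples of a comparison. Authors' fold changes and p-values in the same tables were not used. The CPM of 1 read was estimated in each library from its own values, starting at the smallest level above 0. Divided by it, 100% of 327962 values were whole read counts within 0.01. That CPM was itself fitted to whole reads, so this is not an independent check. The deposited counts of quality-filtered reads were 9404548 to 97241362 for the 24 libraries that have one, and 2 further entries were not used. Symbols were blank for 1911 genes, of which 1885 were filled from the mm9 annotation.

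Each set was tested with limma 3.58.1 (trend) on log2(CPM + 1). Age, line and differences of differences were tested on recovered reads of 11150 genes, scaled jointly with TMM, over all 26 libraries. P-values were adjusted after Benjamini and Hochberg over all genes of the fit. Recovered reads were also tested with DESeq2 1.42.0 and edgeR 4.0.16 (R 4.3.3). Other alternatives were pseudocounts of 0.5 and 5, a filter at a mean of 5 CPM, plain CPM, a fit of the compared groups alone, the pool as a block, omission of each library, and omission of the adult pools read in a single run. Python 3.11.15 with pandas 2.3.3 and numpy 2.4.6 made the tables, and matplotlib 3.10.9 the plots. The tests between cell types were checked on simulated data of independent, unpaired libraries, with changes set only in genes above 5 CPM. That check did not cover lower genes or the tests of age, line and differences of differences. A level of 0 is given with the CPM of 3 reads as its limit, which covers counting error only. That limit takes no account of how many genes had no read in the library.

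The study describes same-numbered ipRGC and cRGC samples as 1 purified pool that was then divided. That the labels number replicates in the same way is an assumption. After removal of group means, partners correlated at a mean r of 0.212 at P5 (6 of 6 libraries best with their partner), 0.0582 in adult Opn4-GFP (7 of 12) and 0.123 in adult Opn4-Cre/GFP (8 of 8). The reported fits have no block. The spread is between pools, not between animals. All named members are given in every library. Of other lists, the called genes with the smallest adjusted p and up to 2 uncalled ones are named. The members, lists and rules were chosen with earlier results of these data known. Of the genes with the levels most like those of Cdkn1b, 1 is not reported here.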

Additional observations from a re-analysis of the deposited data

Results flagged for a closer look

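In groups of 4 to 10 libraries, 4 of 22 member levels had 1 library far from the others by Dixon's ratio of CPM. Its rate of about 1 in 20 groups by chance holds for normally distributed values. Levels in CPM are skewed and no log was taken, so 4 of 22 cannot be read against that rate. Cdkn1c stood at 368.8 CPM in the adult Opn4-GFP ipRGC library of pool 2, while the other 5 libraries were at 32.2 to 50.1 CPM. Ccnd3 stood at 17.8 CPM in the adult Opn4-GFP ipRGC library of pool 5, while the other 5 were at 0 to 2.37 CPM. Cdkn1a stood at 31.0 CPM in the adult Opn4-GFP cRGC library of pool 6, with the other 5 at 0 to 3.29 CPM. Ccnd2 stood at 7.75 CPM in the adult Opn4-Cre/GFP ipRGC library of pool 3, with the other 3 at 0 to 1.27 CPM.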

How the results depend on the processing

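Of the members lower in adult Opn4-GFP ipRGCs, 2 were called, and 1 with plain CPM, 1 with the pool as a replicate block, 1 without single-run pools, 0 with edgeR and 1 to 2 without 1 library. In the Opn4-Cre/GFP line 1 was called lower, 2 with DESeq2 and 1 to 2 without 1 library. Of the members lower with age in ipRGCs, 0 were called, and 1 with a pseudocount of 5 or in a fit of the compared groups alone. Of those higher with age in cRGCs, 2 were called, and 1 to 2 without 1 library. In the test of the age difference between cell types 0 were called lower, 1 without single-run pools and 0 to 1 without 1 library. The block changed no other call of a named gene beside Sesn1 and Snrpn.

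Directions turned only among values that missed the threshold. Cdk4 was -0.068 with a pseudocount of 5, -0.36 with edgeR and -0.35 with DESeq2 in adult Opn4-GFP, and 0.022 with plain CPM in the other line. For age in ipRGCs, Ccnd3 was -0.12 with a pseudocount of 0.5 and -0.49 without single-run pools. For age in cRGCs, Cdkn1c was -0.33 without single-run pools. Between the lines in ipRGCs, Cdkn1a was 0.0021 with edgeR and 0.71 without single-run pools, and Ccnd3 was -0.0018 with edgeR and -0.16 with DESeq2. Between the lines in cRGCs, Cdkn1b was 0.22 without single-run pools. Without 1 library, log2 differences at P5 ranged from -0.15 to 0.67 (Cdkn1a), -0.77 to 0.10 (Ccnd1) and -0.11 to 0.57 (Ccnd3). With age they ranged from -0.18 to 0.40 (Cdkn1b, ipRGCs), -0.54 to 0.31 (Ccnd3, ipRGCs) and -0.17 to 0.87 (Cdkn1c, cRGCs). Between lines they ranged from -0.56 to 0.14 (Cdkn1c, ipRGCs), -1.16 to 0.77 (Cdkn1a, ipRGCs), -0.19 to 1.34 (Ccnd1, cRGCs) and -0.32 to 0.073 (Cdkn1b, cRGCs), and for the line difference of Cdkn1a between cell types from -1.96 to 0.052. For Cdk4 they ranged from -0.65 to 0.57 and from -0.36 to 0.15 in the adult sets, and for Skp1a from -0.33 to 0.22 at P5 and from -0.10 to 0.25 in adult Opn4-GFP. The causes were not tested.

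Counts over all genes moved more. In adult Opn4-GFP 148 to 590 genes were lower and 53 to 261 higher over the settings without omission of 1 library (393 and 204 as reported), with Opn4-Cre/GFP 315 to 804 (464) and 115 to 340 (263), with age in cRGCs 185 to 686 (427) and 315 to 973 (432), and with age in ipRGCs 28 to 70 (50) and 97 to 292 (107). Without 1 library the counts with age were 176 to 484 lower and 255 to 503 higher in cRGCs, and 10 to 53 and 44 to 111 in ipRGCs. Those between cell types were 213 to 333 lower and 183 to 265 higher at P5, 312 to 469 and 142 to 244 in adult Opn4-GFP, and 308 to 539 and 111 to 399 with Opn4-Cre/GFP.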
